A study of Homo sapiens with 4 samples.

Results

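Cytosolic ribosomal proteins are the protein parts of the ribosomes that translate nuclear-encoded messages. The transcripts of their genes were measured with Affymetrix U133 Plus 2.0 microarrays in U937, a human myeloid cell line that the labels describe as lymphoma. Members were the gene symbols made of RPL or RPS and a number, with an optional suffix, and the stalk proteins RPLP1 and RPLP2; pseudogenes and S6 kinase genes were left out. The rule gave 61 genes of the 19775 on the table. Of these, 52 were core members and 9 were paralogs, the near copies such as RPL22L1 and RPS27L. Read literally, with 1 suffix letter at most, the rule gave 56 genes. A further 15 family symbols stood only on probe sets shared with other symbols and were left out of the 61. They were RPL4, RPL5, RPL7A, RPL10, RPL13, RPL13A, RPL17, RPL21, RPL23, RPL28, RPS2, RPS3A, RPS13, RPS20 and RPS26.

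The 4 groups held 1 array each, without replicates. Control cells were untreated, the Sonazoid-only cells received 0.05% Sonazoid, the ultrasound-only cells were sonicated for 1 min (0.3 W/cm2), and the combination cells received both. Sonazoid is a contrast agent of gas-filled microbubbles. All treated cells were incubated for 3 h at 37 °C afterwards, and how long control cells were kept was not given in the sources used here. By its title, the series asks which genes respond when both agents are joined.

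Each gene was represented by its brightest probe set with that symbol alone, and its signal is a probe set intensity after 1 scaling factor per array. A floor of 23.8, the median scaled value over all arrays, replaced any lower value. With 1 array per group no difference below has a replicate check, and none was tested. In bulk RNA, fewer cells of a type and less RNA per cell cannot be told apart, and a change in total RNA per cell would not be seen after scaling.

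Ribosomal proteins are needed in near equal numbers, so cells make them in step. Most of their messages begin with a run of pyrimidines at the cap, the 5′ terminal oligopyrimidine (TOP) motif, and mTORC1 signalling controls how many of these messages are on ribosomes, mostly without changing their amount. Free ribosomal proteins that miss their place in a subunit, RPL11 and RPL5 above all, can bind MDM2 and thereby activate p53. Whether p53 is functional in these cells was not tested here.

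The start regions of the members that the results turn on are shown first. Each line holds the 10 bases before the RefSeq start and the 20 bases from it (assembly GRCh38.p14, transcribed strand), with the pyrimidine tract in capitals. RPL34 and RPL32 had the highest ultrasound differences among the bright members, RPL39 the lowest combination value, and RPL27 and RPS12 went against the list.
RPL34 at chr4:108620566-108620595, plus strand: CTTTTTTCTTCCTCTTCCggggacgttgtc
RPL32 at chr3:12840431-12840460, minus strand: ggtgacccttgaCCTCCTgggatcgcatct
RPL39 at chrX:119791611-119791640, minus strand: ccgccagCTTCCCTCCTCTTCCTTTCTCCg
RPS12 at chr6:132814559-132814588, plus strand: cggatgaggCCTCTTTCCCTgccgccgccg
RPL27 at chr17:42998409-42998438, plus strand: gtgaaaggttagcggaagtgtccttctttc
RPL3 at chr22:39319604-39319633, minus strand: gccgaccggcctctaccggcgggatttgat

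A tract was counted where at least 6 C or T in a row, beginning with C, had its first base within 10 bases of the listed start. Of the 46 core members with a RefSeq promoter, 40 held one (87.0%), against 20.5% of all 27305 promoters. RPL39 had the run of 22 letters shown above, while RPL27 and RPL3 had no tract by this definition. The run ccttctttc at the end of the RPL27 line begins too far from the listed start to count. The listed start base was C in 36 of the 46 (78.3%), against 15.03% of all promoters. The letters CCGGAA, a core of ETS family motifs, searched on both strands of the 300 bases from 250 before the start to 50 after it, were in 26 of the 46 (56.5%), against 17.5%. AAGATGG, a core of the YY1 motif, was in 5 (10.9%, against 6.04%) and TATAAA, the TATA box, in 3 (6.52%, against 12.1%), both on either strand. Read on the other strand, CCGGAA is TTCCGG, which can share its pyrimidines with a tract, and a match is a description of letters only.

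The transcript signals of the ribosomal proteins differed little between the 4 arrays. No core member differed 2-fold in any of the 5 comparisons. Of all genes, 1.65% were 2-fold higher and 0.721% lower with ultrasound only than in control, 0.652% and 0.715% with Sonazoid only, and 1.39% and 0.872% in the combination. The combination had 1.46% higher and 0.711% lower than Sonazoid only, and 0.7% higher and 1.16% lower than ultrasound only. Across the 49 core members with bright probe sets, the highest array exceeded the lowest by 1.08-fold to 1.33-fold, with a median of 1.18-fold, and RPL39 had the widest spread. For all genes above the floor on at least 1 array this median was 1.27-fold. For the 83 genes outside the family with probe sets at least as bright it was lower, 1.15-fold. A spread of 1.2-fold or more was reached by 36.7% of the bright members, 20.5% of these 83 genes and 64.8% of all genes. The bright members, 29 of the large and 20 of the small subunit, had mean signals from 10316 upward. Each was at or above the 99.3 percentile of all genes. The highest deposited value of any probe set was 21728. Whether signals this near the top still rise in proportion to the message was not tested, so small folds here may be compressed. Their cutoff of 1000 was chosen after the values were seen, and the brightest core member left out had a mean of 153. The 3 dim core members were RPL27A, RPL36A and RPLP2.

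Within that narrow range most bright members shared their highest and lowest arrays. Their mean signal was 15706 in untreated cells, 14383 after Sonazoid only, 16950 after ultrasound only and 15144 after the combination. The ultrasound-only array was the highest for 46 of the 49, against 31% of all genes, and the Sonazoid-only array the lowest for 42, against 20.1%. Both held for 39 of them, against 9.82% of all genes. The control array was highest for the other 3, against 22%, and the combination lowest for the other 7, against 20.6%. None was highest with Sonazoid only or in the combination, against 23% and 24% of all genes. None was lowest on the control or the ultrasound-only array, against 19.2% and 21.7%. The 83 equally bright genes outside the family had much the same order. Of them, 68 were highest with ultrasound only, 72 lowest with Sonazoid only, and 61 both.

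**Figure D1:**
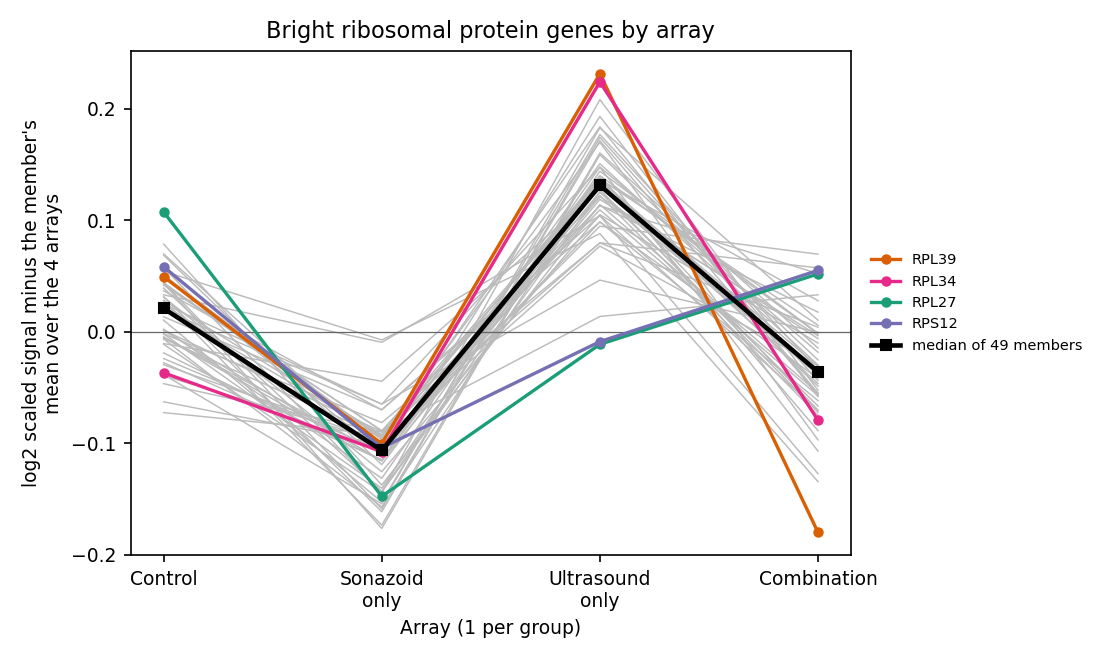
Log2 scaled signal of the 49 bright core members on the 4 arrays, each minus the member's own mean over the arrays; grey lines are single members and the black squares their median. Most lines peak at ultrasound only and dip at Sonazoid only, while RPL27 and RPS12 are highest on the control array and RPL39 is lowest in the combination.

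With ultrasound only, the median difference of the 52 core members from control was 0.126 on the log2 scale, a 1.09-fold higher signal. Of these, 48 lay above 0 and 4 below, against 71 and 12 of 83 equally bright genes and 53.2% and 46.8% of all genes. The median stayed above 0 under each scaling tried, at 0.0850 as deposited and 0.0216 with quantile-normalised arrays. With quantile-normalised arrays 30 members lay above 0 and 22 below, and with arrays centred on equally bright genes 32 and 20. At 1.2-fold or more, 2 members were higher and 1 lower, against 20.8% and 16.2% of all genes, and all 3 were dim. RPL34, a large-subunit protein, had signals of 12503 in control, 11905 after Sonazoid alone, 14981 after ultrasound alone and 12139 after both. Its ultrasound-only value stood alone above the other arrays, with a difference of 0.26 from control. RPL32 was at 12470, 11507, 14537 and 12898 in the same order, a difference of 0.22. RPL27, another large-subunit protein, went the other way, at 16512, 13835, 15207 and 15887, a difference of -0.12. RPS12, a small-subunit protein, was at 17666, 15785, 16863 and 17626, a difference of -0.07. In both of these the control and combination arrays were the high ones. RPS25, a small-subunit protein used by some viral internal entry sites, completed the 3 bright members below control with -0.03.

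With Sonazoid only, the 52 core members had a median of -0.119, a ratio of 0.921 to control. Of these, 50 lay below 0, against 79 of the 83 equally bright genes and 50% of all genes. With quantile-normalised arrays this median was 0.00920, so the direction rests on the scaling. At 1.2-fold or more, 1 member was higher and 1 lower, both dim, against 13.9% of all genes each way. All 49 bright members lay below control, from -0.26 for RPL27 to -0.02 for RPL23A. RPS15A was at 13981 in control and 12004 with Sonazoid only, and RPS16 at 20423 and 17582, both a difference of -0.22. RPL23A, which sits at the exit of the nascent chain tunnel, was at 13319 and 13138, and RPL37 at 15497 and 15137.

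In the combination, the core members had a median of -0.047 from control, with 11 above and 41 below 0. Of the 83 equally bright genes, 25 lay above and 58 below, and of all genes 49.6% and 50.4%. With the values as deposited, before scaling, this median was 0.127 and 49 members lay above 0, while the median of all genes was 0.163. RPL39, a small protein that lines the exit tunnel, was at 18858 in control, 16998 after Sonazoid alone, 21395 after ultrasound alone and 16087 after both. It was lowest in the combination, 0.23 below control, and highest with ultrasound only. RPL3, which reaches toward the peptidyl transferase centre, was at 13774, 13199, 14101 and 12086, a combination difference of -0.19. RPL36 (9859 and 10807), RPL23A (13319 and 14522) and RPL18 (16939 and 18203) had the highest bright values, with differences of 0.13, 0.12 and 0.10. At 1.2-fold or more, 1 dim member was higher and 1 lower, against 18.4% and 16.9% of all genes.

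Against ultrasound only, the combination had a core median of -0.171, and 47 of the 52 lay below 0. So did 79 of the 83 equally bright genes and 52.1% of all genes. Here too the values as deposited gave another direction, with a core median of 0.0452. This comparison had the most members at 1.2-fold or more, 4 lower and 1 higher, against 20% and 15.4% of all genes. Bright among the lower ones were RPL39 with -0.41, RPL34 with -0.30 and RPL8, a protein near the peptidyl transferase centre, with -0.27. RPL8 was at 16764 in control, 15486 after Sonazoid alone, 18586 after ultrasound alone and 15448 after both, so that both Sonazoid arrays lay below both others. RPS12 and RPL27 were again on the other side, each 0.06 above ultrasound only.

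Against Sonazoid only, the combination had a core median of 0.0856, with 44 above and 8 below 0. The 83 equally bright genes had 74 above and 9 below, and all genes 49.7% and 50.3%. With quantile-normalised arrays the core median was 0.00407. A single core member, the dim RPL27A, was 1.2-fold lower and none higher, against 16.6% and 17.6%.

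**Figure D2:**
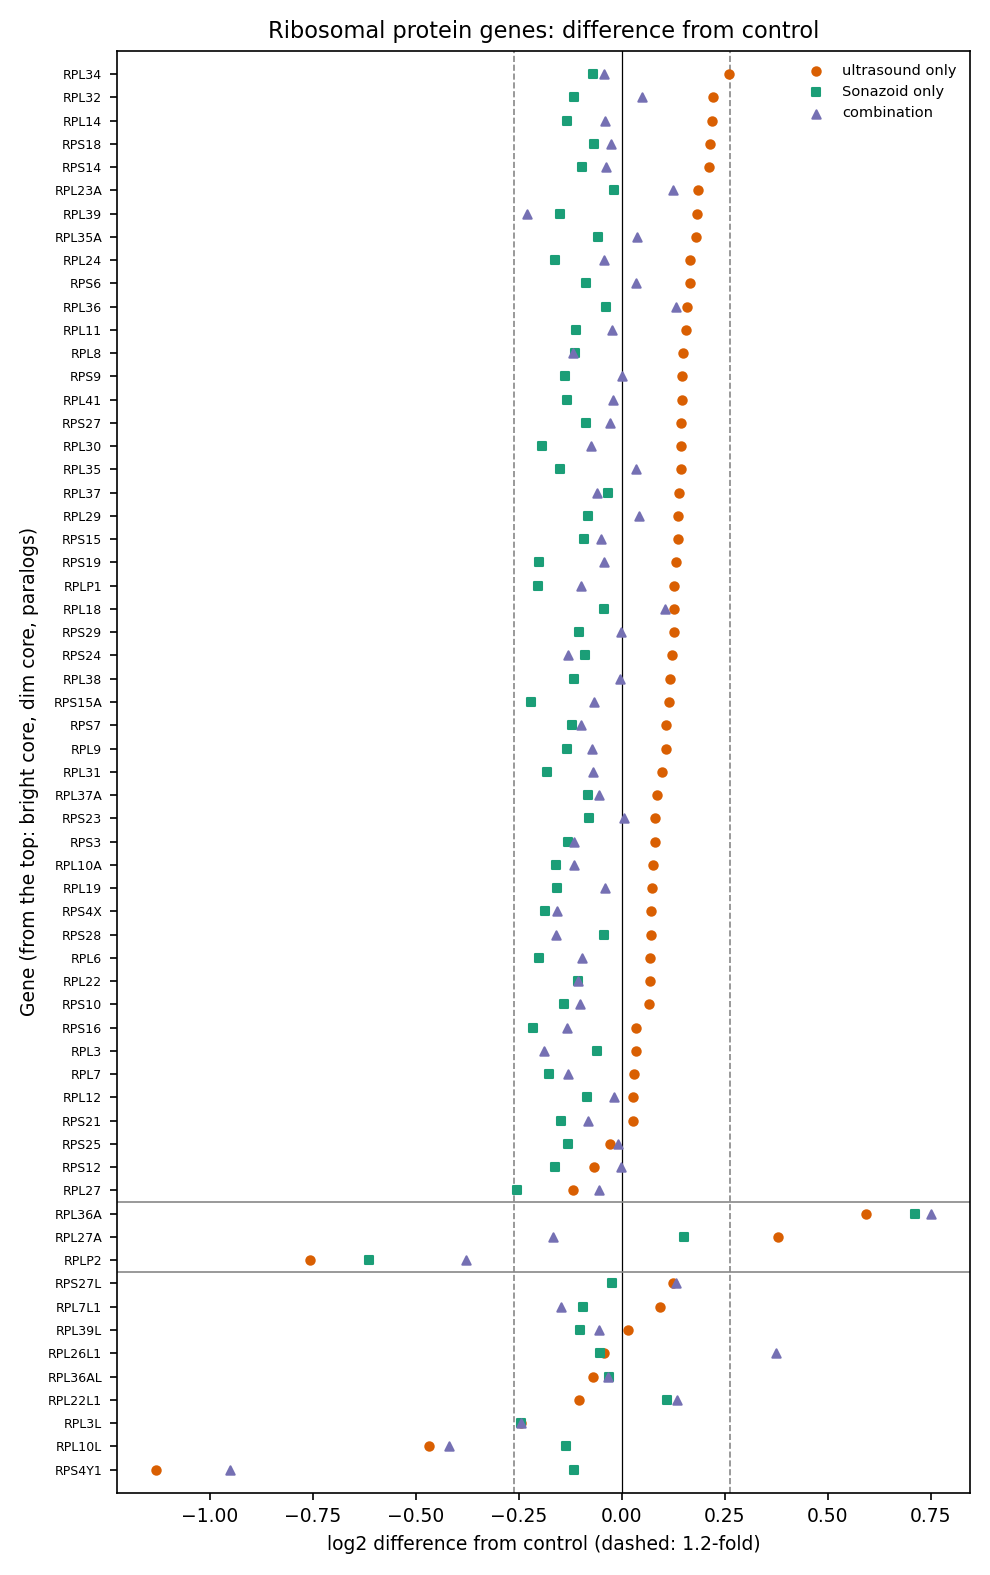
Log2 difference from the control array of each of the 61 members: circles are ultrasound only, squares Sonazoid only and triangles the combination, with dashed lines at 1.2-fold. The bright core at the top stays inside the dashed lines, RPL34 touching the upper one at 0.26, while dim core members and paralogs at the bottom reach past them.

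Large and small subunit members had close medians. With ultrasound only the large-subunit median was 0.137 (29 bright members) and the small-subunit median 0.111 (20 members). The values were -0.117 and -0.126 with Sonazoid only, -0.0447 and -0.0464 in the combination. In each comparison the 25th to 75th percentile ranges of the subunits overlapped.

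Of the members with roles beyond the ribosome core or at its working sites, RPL11, RPLP1, RPS6, RPS3, RPL41 and RPS27 followed most of the list. They were highest with ultrasound only and lowest with Sonazoid only. RPL3, RPL8 and RPL39 were instead lowest in the combination, and RPS25 was highest on the control array. RPL11, which binds MDM2, was at 15244 in control, 14121 after Sonazoid alone, 16983 after ultrasound alone and 14985 after both. RPLP1, a stalk protein that recruits elongation factors, was at 18261, 15865, 19944 and 17036. RPS6, the substrate of the S6 kinases, was at 17399, 16380, 19508 and 17810. The control and combination arrays lay between, with control the higher in RPL11 and RPLP1 and the combination the higher in RPS6. RPS3, at the messenger entry channel, was at 15604, 14254, 16498 and 14392. RPL41, a very short protein, was at 17335, 15799, 19173 and 17087. RPS27, a zinc-finger protein of the small subunit, was at 15450, 14538, 17060 and 15133. RPL5, RPL10 and RPL13A are among the 15 left out, and RPLP0 and RPSA were not analysed here.

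Other genes with probe sets at least as bright showed a shift of the same kind. The 83 such genes outside the family had a median of 0.087 with ultrasound only, -0.103 with Sonazoid only, -0.040 in the combination and -0.118 for the combination against ultrasound only. The bright members differed from them by 0.0389, -0.0174, -0.00429 and -0.0540. Of the 83 genes, 61 were highest with ultrasound only and lowest with Sonazoid only (73.5%, against 79.6% of the bright members). Among genes outside the family the median changed with the signal. With ultrasound only it was -0.011 between 1000 and 3000, 0.024 between 3000 and 5000, 0.039 between 5000 and 8000, and 0.066 above. With Sonazoid only the same ranges gave 0.0069, -0.015, -0.026 and -0.090. In the combination they gave -0.014, 0.016, 0.032 and -0.020, without a steady trend. When each array was centred on the 83 genes, the fold between a bright member's highest and lowest array had a median of 1.08 and 1 member reached 1.2. ACTB and GAPDH, used as control genes, had ultrasound-only differences of 0.14 and 0.10 and Sonazoid-only differences of -0.12 and -0.16. The part of signal brightness in the members' shift was not tested.

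**Figure D3:**
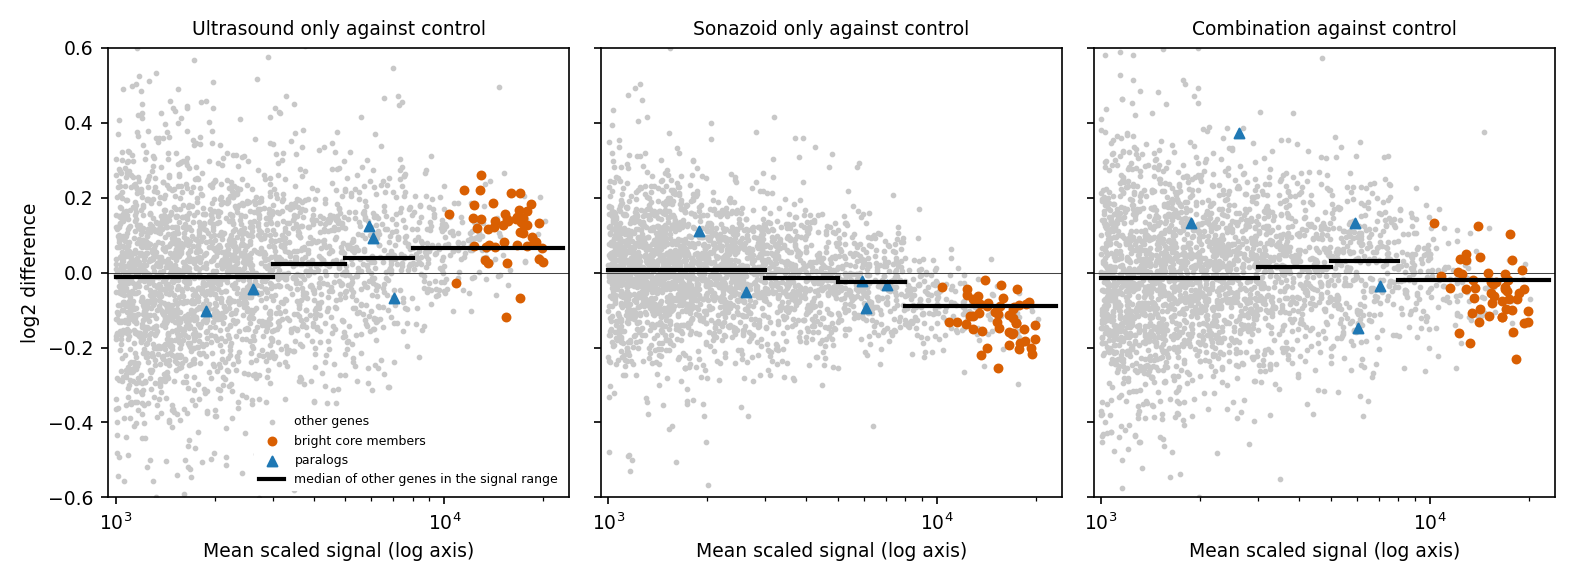
Log2 difference from control against mean scaled signal (log axis) for genes with a mean signal above 1000, in the 3 treated groups; orange circles are bright core members, blue triangles paralogs, grey dots other genes, and black lines the medians of other genes in 4 signal ranges. The vertical axis ends at 0.6 either side of 0 and leaves out genes beyond it; the orange points lie where the black line has already left 0, upward with ultrasound only (0.066) and downward with Sonazoid only (-0.090).

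After the same centring the bright members and the 83 genes had similar spreads between arrays. The widest fold was 1.22 for a member and 1.32 for a gene of the 83, with medians of 1.08 and 1.07. In each set 1 gene reached 1.2. Single members, picked for their values, are given next. RPL39 was 0.29 lower in the combination than with ultrasound only, and RPL3 0.16 lower than in control. RPL27 was -0.22 and RPS12 -0.17 with ultrasound only. RPL34 was 0.16 higher with ultrasound only, and RPL36 and RPL23A 0.16 and 0.15 higher in the combination.

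Ultrasound was present on 2 arrays and absent from 2, and so was Sonazoid. Both ultrasound arrays lay above both others for 10 core members, against 18.8% of all genes, and below for 0, against 17.8%. Both Sonazoid arrays lay below both others for 36 of the 52, against 16% of all genes, and above for 1, against 13.8%. Of the 83 equally bright genes, 54 had both Sonazoid arrays below. With quantile normalisation the 36 became 7, with values as deposited 1, and after centring on the 83 genes 18. The shares of all genes in these settings were not computed. The departure of the combination from the sum of the single treatments had a core median of -0.036, against -0.017 for all genes. Across the 49 bright members, the ultrasound difference without Sonazoid and that with it, which share no array, had a Pearson r of -0.020 and a Spearman rho of 0.119.

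Several probe sets of one gene gave a view of the error within an array. Of the 27 core genes with more than 1 probe set above the floor, the probe sets all had the sign of the brightest in 15 for ultrasound only, 12 for Sonazoid only and 10 for the combination. The 21 further bright probe sets had that sign in 18, 18 and 15 cases, with medians of 0.085, -0.114 and -0.043. RPS6 had 3 bright probe sets, with ultrasound-only differences of 0.17, 0.09 and -0.01. RPS9 had 0.15 on its brightest probe set and 0.40 on another. Both gaps were wider than the 25th to 75th percentile range of the bright members, which spanned 0.078. A further 48 bright probe sets with several symbols, at least 1 of them a member's, had medians of 0.10 with ultrasound only (45 above 0), -0.112 with Sonazoid only (1 above) and -0.016 in the combination. A gene-specific probe set by its identifier, above the floor on at least 1 compared array, was available for 25 of the 52 core members. Several of these were far dimmer than the gene's brightest probe set, with mean signals of 67.6 against 11504 for RPL14 and 46.8 against 19915 for RPL7. On the gene-specific probe sets of the 25 members the combination median was 0.00598. Other probe sets can also catch processed pseudogenes and related genes.

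The 3 dim core members had low signals, some at the floor, on the probe sets that carry their symbol alone. Whether these probe sets reflect the level of the messages was not tested. RPL27A was at 142 in control, 158 after Sonazoid alone, 185 after ultrasound alone and 127 after both. RPL36A was under the floor in control and at 39.0, 35.9 and 40.1 elsewhere. RPLP2, the partner of RPLP1 in the stalk, was at 40.3 and 26.3 without ultrasound, under the floor with ultrasound only, and at 31.0 in the combination. Their order between arrays changed from gene to gene.

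Of the 9 paralogs, 3 lay above and 6 below control with ultrasound only, against 53.2% and 46.8% of all genes, and 1 above and 8 below with Sonazoid only, against 50% each way. In the combination 3 lay above and 6 below, against 49.6% and 50.4%. Their medians were -0.069, -0.094 and -0.056; with values as deposited the combination median was 0.119, and centred on the 83 genes the Sonazoid-only median was 0.0039. The start regions of RPL22 and RPS27 are set beside those of their paralogs, and that of RPL26L1 stands alone because RPL26 was not analysed here; these paralogs are described next.
RPL22 at chr1:6199576-6199605, minus strand: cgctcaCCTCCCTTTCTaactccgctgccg
RPL22L1 at chr3:170870176-170870205, minus strand: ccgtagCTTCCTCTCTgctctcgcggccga
RPS27 at chr1:153990752-153990781, plus strand: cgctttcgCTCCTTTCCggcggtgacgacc
RPS27L at chr15:63157458-63157487, minus strand: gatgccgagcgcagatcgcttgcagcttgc
RPL26L1 at chr5:172958719-172958748, plus strand: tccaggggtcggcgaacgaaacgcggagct
Of the 7 paralogs with a RefSeq promoter, 3 held a tract. RPL22L1 has one like RPL22, while RPS27L and RPL26L1 have none by this definition.

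RPL26L1, a close copy of RPL26, had the largest difference among members with signals over 1000. It was at 2482 in control, 2393 after Sonazoid alone, 2407 after ultrasound alone and 3216 after both. The first 3 arrays lay close together and the combination stood above them, 1.30-fold over control and 1.34-fold over ultrasound only. At 1.2-fold or more it was the 1 paralog higher in the combination, against 18.4% of all genes. RPL22L1, whose message RPL22 protein is known to repress, was at 1832, 1978, 1705 and 2009. Its high arrays were the Sonazoid ones, whereas RPL22 was at 13737 in control, 12757 after Sonazoid alone, 14395 after ultrasound alone and 12754 after both, with its low arrays there. The probe sets of RPL22 did not all share that order: the 3 brightest, with mean signals of 13070 to 13411, had ultrasound-only differences of 0.06 to 0.09, and those with mean signals of 3800 and 2927 had -0.12 and -0.10. With Sonazoid only the latter pair had -0.03 and 0.09. Centred on the 83 genes, RPL22 was -0.03 and RPL22L1 -0.20 with ultrasound only, so that the opposite signs rest on the scaling and the probe set.

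RPS27L was at 5665, 5574, 6178 and 6209, with both ultrasound arrays above both others, against 18.8% of all genes. A dim further probe set kept that order, at 109, 120, 143 and 145. Another did not, at 211, 274, 211 and 214. RPS27 was high with ultrasound only and near control in the combination. RPL7L1, a ribosome assembly protein related to RPL7, was at 6210, 5818, 6621 and 5605. RPL36AL was at 7200, 7039, 6864 and 7028, the narrowest spread of all members, 1.05-fold. RPL39L, best known from testis, was at 587, 547, 593 and 565, a combination difference of -0.06 from control against -0.23 for RPL39.

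Both ultrasound arrays lay below both others for 3 of the 9 paralogs, RPL36AL, RPL10L and RPS4Y1, against 17.8% of all genes, and the last pair had low signals. RPL10L was at 129, 117, 93.2 and 96.4. RPS4Y1, the Y-linked copy of RPS4X, was at 55.9, 51.6, 25.5 and 28.9, and its ultrasound-only difference of -1.13 was the single one past 2-fold among the 61 members, against 0.721% of all genes. RPL3L, a muscle paralog, was at 28.2 in control and under the floor on the other arrays.

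**Figure D4:**
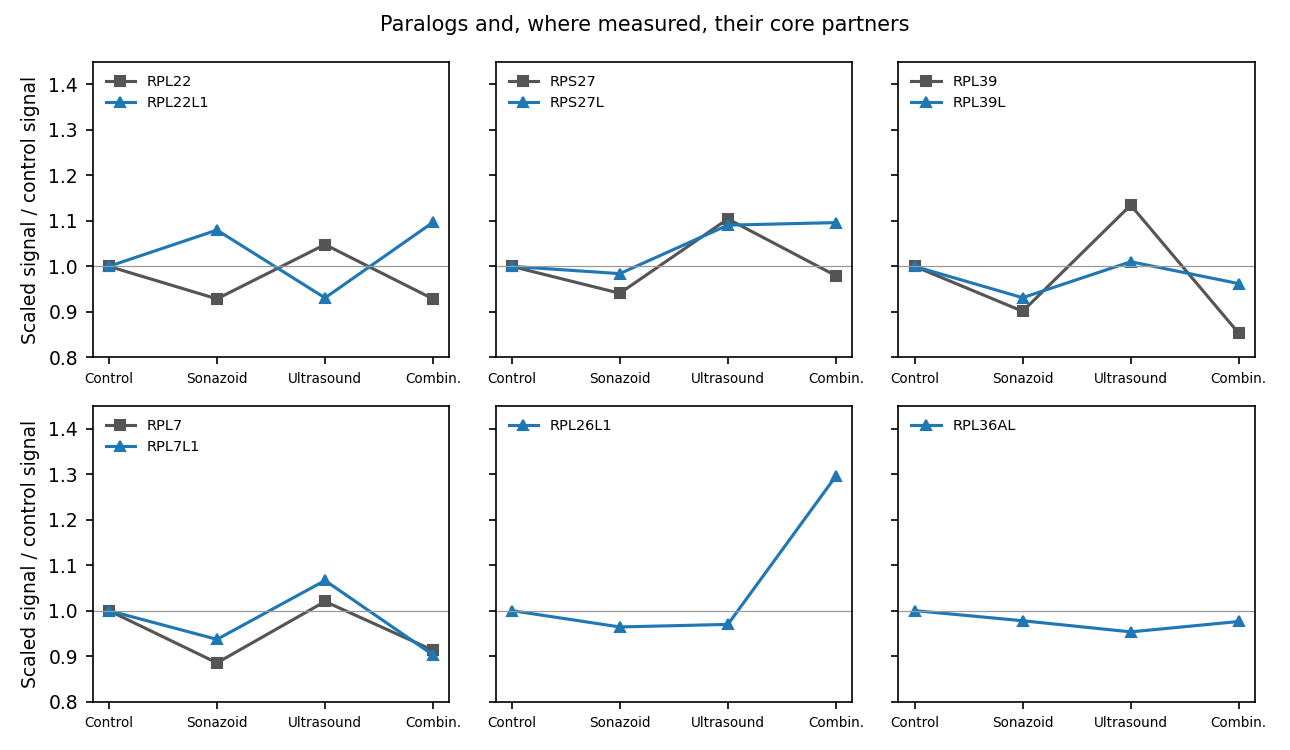
Scaled signal divided by the control signal for 6 paralogs (triangles) and, where measured, their core partners (squares) on the 4 arrays, 1 array per group. RPL22L1 runs opposite to the brightest RPL22 probe set at this scaling, RPL39L does not follow RPL39 in the combination, and RPL26L1 reaches 1.30 in the combination alone.

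Genes around the ribosome were described from lists by their role. FAU, a ribosomal protein outside the naming rule, was 0.13 with ultrasound only, -0.09 with Sonazoid only and 0.03 in the combination. The 15 other TOP messages, which include elongation factors, had medians of 0.075, -0.056 and -0.017, with 2, 1 and 2 of them 1.2-fold higher and 0 lower. For all genes the shares at 1.2-fold were 20.8%, 13.9% and 18.4% higher and 16.2%, 13.9% and 16.9% lower in the same order, and the counts of the lists below stand against these. VIM, an intermediate filament gene, was at 1980 in control, 1899 after Sonazoid alone, 5915 after ultrasound alone and 4939 after both. HNRNPA1, an RNA-binding protein, was at 1490, 1908, 2415 and 2419. Both were high on the 2 ultrasound arrays. EEF1A1, the elongation factor that brings aminoacyl-tRNA, was at 17825, 16411, 19683 and 16925, the order seen in most bright members. The 29 initiation and elongation factors outside that list had medians of 0.021, -0.028 and -0.037, with 0, 2 and 1 of them 1.2-fold higher and 1, 0 and 1 lower. EIF3A, an initiation factor subunit, was the lower one with ultrasound only at -0.35.

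Ribosome assembly factors, which help to build the subunits, had the lowest median of these lists in the combination. It was -0.168 over 35 genes, with 12 at 1.2-fold or more lower and 1 higher, against 16.9% and 18.4% of all genes. With values as deposited it was 0.00631 with 4 lower. UTP20 was at 339 in control, 289 after Sonazoid alone, 285 after ultrasound alone and 216 after both, and GRWD1 at 626, 629, 503 and 424. RRP9 was at 823, 642, 699 and 581. In these 3 genes the combination was the lowest array. With ultrasound only the median was -0.077, with 6 of 35 lower and 2 higher, against 16.2% and 20.8% of all genes, so the lower count was near the background. RRS1 was at 2687 in control and 1643 there, LTV1 at 1766 and 1213, NIP7 at 2097 and 1478. With Sonazoid only it was 0.0069, with 3 lower, against 13.9%.

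The 17 genes of mTORC1 and S6 kinase control had medians of -0.000283, 0.032 and 0.0042, with 2, 1 and 4 of them 1.2-fold higher and 1, 0 and 2 lower. DDIT4, a stress-induced inhibitor of mTORC1, was at 538 in control, 550 after Sonazoid alone, 1700 after ultrasound alone and 1666 after both, high on both ultrasound arrays. SESN2, another inhibitor, was at 121, 172, 223 and 165. MTOR, the kinase itself, differed by -0.37 with ultrasound only and -0.54 in the combination. The 13 stalling sensors and rescue factors had medians of -0.079, 0.012 and 0.046, with 2, 0 and 0 of them 1.2-fold higher and 2, 0 and 1 lower, and the highest was ZNF598, a ligase that marks collided ribosomes, at 0.58 with ultrasound only. The 75 mitochondrial ribosomal proteins, which belong to a separate ribosome, had medians of 0.044, -0.00054 and 0.00055, with 2, 0 and 3 higher and 6, 4 and 2 lower. With values as deposited, the combination medians were 0.158 for the other TOP messages, 0.138 for the initiation and elongation factors and 0.175 for the mitochondrial proteins. The median of all genes was then 0.163.

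**Figure D5:**
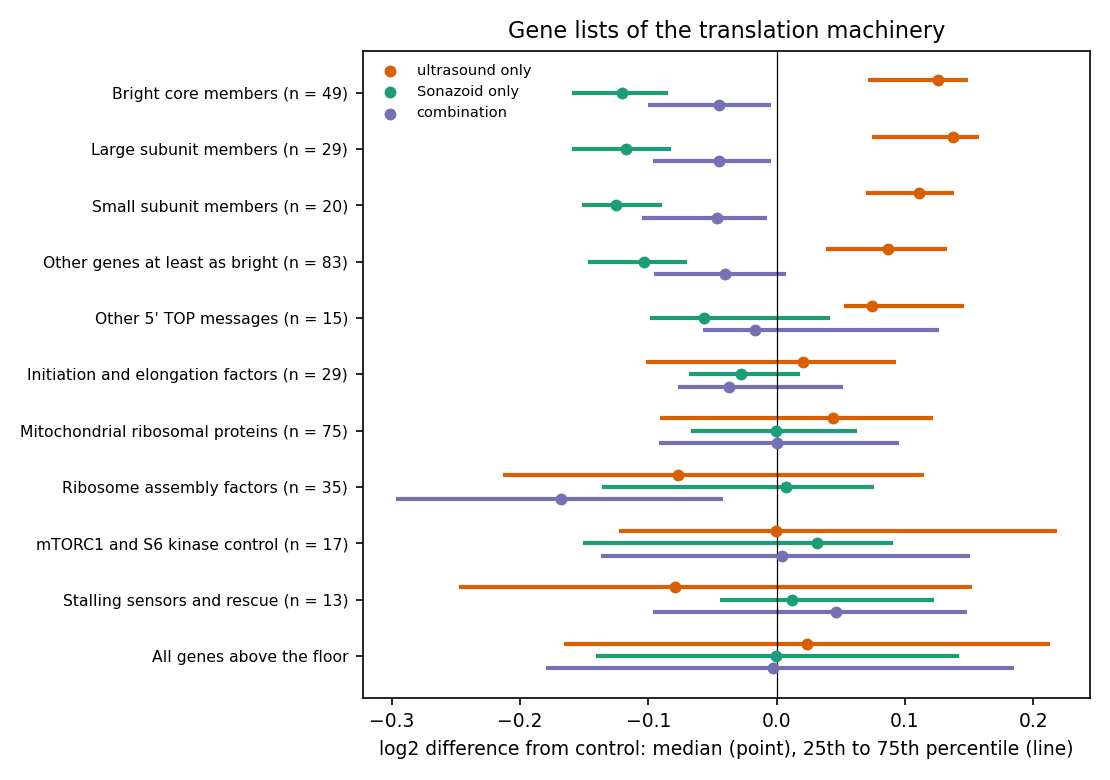
Median log2 difference from control (points) and the 25th to 75th percentile over genes (lines) for the members and other lists of the translation machinery, with ultrasound only, Sonazoid only and the combination; lines show spread between genes, not replicate error. The bright members and the 83 equally bright genes have ultrasound-only medians of 0.126 and 0.087 and Sonazoid-only medians of -0.120 and -0.103, and the assembly factors are lowest in the combination at -0.168.

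The labelled cell type was checked on the arrays. Of the 14 myeloid markers present, 12 were above the floor on all arrays, with summed signals from 37504 to 46166, lowest with Sonazoid only and highest with ultrasound only. T cell and epithelial markers had 0 of 4 each above the floor on all arrays, B cell markers 2 of 4 and erythroid markers 1 of 2. The 3′ to 5′ signal ratio was 1.158 to 1.204 for ACTB and 0.946 to 1.013 for GAPDH. The genes of the bright members were short, with a median span of 5035 bases in the RefSeq annotation against 7713 for the 83 equally bright genes and 27287 for all genes above the floor. They lay on 19 chromosomes, with 7 on chromosome 19.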

How the data were processed

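Intensity values for 54675 probe sets on 4 arrays were used as deposited by the authors, on a linear scale from 0.0486 to 21728. How probe sets were summarised was not given in the sources used here. Biotin-labelled RNA came from total RNA by amplification from the 3′ end, per the labels' protocols. Trimmed means (2% cut at each end) differed 1.16-fold between arrays, above a limit of 1.1, so each array was scaled by 1 factor (1.04 control, 0.977 Sonazoid only, 1.07 ultrasound only, 0.923 combination) to the common trimmed mean. The floor of 23.8 was then set and log2 taken. Of the 41091 probe sets with 1 symbol, 41037 took their current name, by Entrez identifier, from the RefSeq table (GRCh38.p14); 1801 with several symbols were used only as a group. The brightest probe set stood for a gene, and 13965 genes exceeded the floor on at least 1 array.

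With 1 array per group no test was made and the number of arrays limits the precision; counts at 2-fold and 1.2-fold (0.263 on the log2 scale) describe 5 comparisons, each share being over genes above the floor on at least 1 of its arrays. Named members were the 4 highest and 4 lowest core members of each comparison with control and of the combination against ultrasound only, the paralogs, the stalk, RPL11, RPS6, RPS3, RPL41, RPL3 and RPS27, and the 3 farthest from 0 of each other list; all others named were chosen after their values were seen. Members and lists were chosen with earlier results of these data known. Alternatives covered scaling, floor, probe set choice and members. The calculation was tested on simulated data. Python 3.11.15, numpy 2.4.6, pandas 2.3.3 and matplotlib 3.10.9 were used.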

Additional observations from a re-analysis of the deposited data

Results flagged for a closer look

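In 15 of the 61 members the ultrasound difference had opposite signs without and with Sonazoid. Each side is 1 array against 1 array, so the difference was not tested. The share of all genes with opposite signs was not computed, so the count has no background beside it. Some of these signs change with the scaling. Centred on the equally bright genes, RPL22 (-0.03 and -0.07) and RPL3 (-0.06 and -0.20) had the same sign on both sides. RPL34 then had opposite signs (0.16 and -0.04), and RPL39 (0.08 and -0.15) and RPL27 (-0.22 and 0.13) kept theirs. The values below are at the main scaling. Higher with ultrasound only than in control, and lower in the combination than with Sonazoid only, were RPL39 (0.18 and -0.08, a departure of -0.262), RPL3 (0.03 and -0.13, departure -0.161), RPL37 (0.14 and -0.03, departure -0.166), RPL8 (0.15 and -0.0036, departure -0.152), RPL7L1 (0.09 and -0.05, departure -0.146), RPS28 (0.07 and -0.12, departure -0.189), RPS24 (0.12 and -0.04, departure -0.165), RPL22 (0.07 and -0.00028, departure -0.0678) and the dim RPL27A (0.38 and -0.32, departure -0.698). The opposite held for RPL26L1 (-0.04 and 0.43, departure 0.471), RPL27 (-0.12 and 0.20, departure 0.318), RPS12 (-0.07 and 0.16, departure 0.226), RPS25 (-0.03 and 0.12, departure 0.151), RPL22L1 (-0.10 and 0.02, departure 0.126) and the dim RPLP2, under the floor with ultrasound only (departure 0.991).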

How the results depend on the processing

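The scaling decided the size, and in 3 comparisons the direction, of the core median. With values as deposited it was -0.0268 for Sonazoid only, 0.127 for the combination against control, 0.168 against Sonazoid only and 0.0452 against ultrasound only, and the departure was 0.0874; this setting moved the median of all genes by 0.166 for the combination against control and 0.206 for the combination against ultrasound only. With quantile normalisation the core median was 0.0216 for ultrasound only, 0.00920 for Sonazoid only, 0.00407 for the combination against Sonazoid only and -0.0104 against ultrasound only. Centred on the 83 equally bright genes, a setting added after seeing the data, it was 0.0282, -0.0207, 0.0138 and -0.0465 in the same order. Gene-specific probe sets (25 members) gave 0.00598 for the combination against control and -0.0225 against ultrasound only. Probe sets in the top 1% were taken as possibly saturated. Leaving them out left the 3 dim members, with 0.379 for ultrasound only, 0.152 for Sonazoid only and -0.167 for the combination. The combination then had 0.159 against ultrasound only, and the departure was -0.552.

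Shares over all genes were computed at the main scaling only, so the counts under other settings have no background beside them. Both ultrasound arrays lay above both others for 39 members as deposited and 0 without the top 1%. They lay below for 1 as deposited, 10 with quantile normalisation, 2 with gene-specific probe sets, 2 with the mean of probe sets, 1 under the literal rule and 5 after centring. Both Sonazoid arrays lay above for 2 as deposited, 7 with quantile normalisation, 0 with the stricter floor or without the dim members, 6 with gene-specific probe sets, 3 with the mean of probe sets and 5 after centring. They lay below for 1 as deposited, 7 with quantile normalisation, 8 of 25 with gene-specific probe sets, 0 without the top 1% and 18 after centring. The causes were not tested beyond what each setting changes by construction. Counts of members past a fold stayed within 1.5 times of the reported ones in 180 cases, rose in 22 and dropped in 28. A count of 0 under both settings was scored as unchanged, and every 2-fold count of core members was 0 at the main scaling. Some cases set a 1.5-fold count against a 1.2-fold one, so these cases do not measure stability. Differences of named members moved by less than 0.1 in 751 cases and by more in 170. No paired analysis was possible because each group has 1 array.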
